A study of Homo sapiens with 8 samples.

Results

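Of the 1803 lncRNA genes in GENCODE whose symbol ends in -AS plus a number (HOX genes, OIP5-AS1 and EPB41L4A-AS1 were left out), 552 were measured in HAP1 nuclei. Such a symbol names an RNA by the gene on the opposite strand. A gene counted as measured when it matched a gene of the short-read table, either by its ENSG identifier (38 genes) or as an assembled locus with an MSTRG identifier whose span on the same strand had a Jaccard overlap of at least 0.5 with it (514 genes), and when it held at least 10 normalized counts in at least 3 of the 6 short-read libraries. A further 1170 genes matched a row of the table and fell short of that minimum, 723 of them with 0 reads in every library, and 81 matched no row. Each antisense gene was then paired with the sense gene in its symbol. The sense gene was in the annotation for 549, had a row of its own for 503 and passed the same minimum for 449, which gave 449 pairs with 442 different sense genes. The short-read table as a whole holds 62727 genes, of which 26066 were tested.

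HAP1 is a near-haploid human cell line of leukemic origin, and all 8 libraries came from it without treatment. Nuclei were extracted with urea and the detergent NP-40 and spun down, and the pellet was taken as chromatin and the supernatant as nucleoplasm. Strand-specific short reads were made from 3 chromatin and 3 nucleoplasm libraries of 3 independent cultures, and nanopore cDNA long reads from 2 chromatin libraries. One line stood for all cells, the fractions were defined by what the extraction released, and the long reads analysed here come from chromatin alone. The values are averages over many cells, so a change in the number of cells that hold an RNA and a change in the RNA per cell cannot be told apart. One label field names chromatin for all 8 libraries, so fractions were taken from the titles. Recovered depth, in counts derived from StringTie coverage, was 38816272 to 43714811 in chromatin and 75680880 to 79477655 in nucleoplasm. The 4 fractionation markers moved with the titles, MALAT1 and PVT1 by log2 fold changes of 3.09 and 3.11 toward chromatin, and GAPDH and B2M by -2.35 and -2.11.

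Antisense lncRNAs are transcribed from the strand opposite a gene, often from a promoter that fires in both directions or from a start inside or behind the gene. Some act where they are made, by recruiting or keeping away chromatin proteins at the locus or by pairing with the sense RNA, while others are exported or have no known function. An RNA that stays with chromatin sediments with the pellet, whereas a finished mRNA on its way out of the nucleus is released, so a pair on opposite strands of the same locus can divide between the fractions.

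The annotation gave the arrangement of 549 pairs. In 274 the genes ran head-to-head with overlapping spans, and in 31 head-to-head with a gap between the starts. In 93 the ends overlapped tail-to-tail, 103 antisense genes lay inside the sense gene, and 44 sense genes lay inside the antisense gene. The remaining 4 were not antisense in the narrow sense or not near: FRMD3-AS1 lay tail-to-tail with a gap, LYRM4-AS1 and LIM2-AS1 were farther than 5 kb from the sense gene, and FAM131B-AS2 was on the same strand as FAM131B. Exons of the 2 genes overlapped on opposite strands in 341 of the 449 tested pairs, by a median of 282 bases.

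The head-to-head pairs with a gap leave a short stretch of DNA between the starts of both genes. The intervals between the annotated starts are printed for the 3 pairs of this arrangement whose antisense to sense ratio differed most toward chromatin and the 2 that differed most the other way, among gaps of 50 to 300 bases. Ranked were only pairs with the antisense gene at the minimum in all 6 libraries and no annotated untranslated region in the interval. Not every chromosome was searched, so these are not the extremes of the whole class. They are given in hg38 on the antisense strand, 5′ to 3′, so that the antisense gene starts just after the last base and the sense gene starts on the other strand before the first. Capitals mark the letters CCAAT or ATTGG (the CCAAT box on either strand) and GGGCGG or CCGCCC (the GC box). The intervals are chr4:25160551-25160640 for SEPSECS-AS1 (plus strand), chr5:154445851-154445996 for SAP30L-AS1 (minus), chr13:45341285-45341344 for TPT1-AS1 (plus), chr21:32393013-32393094 for URB1-AS1 (plus) and chr7:157010664-157010804 for MNX1-AS1 (plus).
SEPSECS-AS1: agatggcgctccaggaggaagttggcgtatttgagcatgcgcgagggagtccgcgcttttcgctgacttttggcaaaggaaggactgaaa
SAP30L-AS1: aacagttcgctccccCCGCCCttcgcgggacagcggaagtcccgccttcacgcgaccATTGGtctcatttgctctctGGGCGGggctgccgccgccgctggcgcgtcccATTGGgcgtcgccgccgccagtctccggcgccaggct
TPT1-AS1: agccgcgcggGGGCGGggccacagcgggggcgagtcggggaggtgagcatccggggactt
URB1-AS1: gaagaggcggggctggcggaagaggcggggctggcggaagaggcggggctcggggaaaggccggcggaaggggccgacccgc
MNX1-AS1: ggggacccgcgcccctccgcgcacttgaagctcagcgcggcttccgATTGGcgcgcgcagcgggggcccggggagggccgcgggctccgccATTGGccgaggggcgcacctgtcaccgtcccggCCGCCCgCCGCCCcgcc

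The intervals were 90, 146, 60, 82 and 141 bases long in that order, with 54.4%, 71.9%, 78.3%, 78.0% and 81.6% G and C. SAP30L-AS1 and MNX1-AS1, taken from opposite ends of the ranked ratios, each held 2 CCAAT boxes and 2 GC boxes. TPT1-AS1 held 1 GC box, and the intervals of SEPSECS-AS1 and URB1-AS1 held none of these letters. No interval held TATAAA or TTTATA (the TATA box). RefSeq (GRCh38.p14) gave promoter windows of 250 bases before to 50 after the start for 428 of the 552 antisense genes. A GC box stood in 63.1% of these windows and in 44.6% of all 27303 RefSeq windows, a CCAAT box in 29.4% and 35.7%, and a TATA box in 4.2% and 12.0%. The tested sense partners had 65.0%, 31.1% and 5.8% over 363 windows. Among the antisense genes called in chromatin (115 windows) the shares were 59.1%, 28.7% and 3.5%, and among the others (313 windows) 64.5%, 29.7% and 4.5%. A match of letters is a description and no site.

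In overlapping arrangements the antisense exons can run across coding exons. A coding exon of the sense gene that lies whole inside an antisense exon is printed for TTN-AS1 and MCM3AP-AS1, which recur in the values. The sequence is that of the antisense RNA as DNA letters (hg38), capitals mark the stretch complementary to the coding exon, and lower case the 20 bases on each side. The windows are chr2:178528254-178528447 (plus strand; exon 361 of TTN, 154 coding bases) and chr21:46242782-46242951 (plus; exon 25 of MCM3AP, 130 coding bases).
TTN-AS1: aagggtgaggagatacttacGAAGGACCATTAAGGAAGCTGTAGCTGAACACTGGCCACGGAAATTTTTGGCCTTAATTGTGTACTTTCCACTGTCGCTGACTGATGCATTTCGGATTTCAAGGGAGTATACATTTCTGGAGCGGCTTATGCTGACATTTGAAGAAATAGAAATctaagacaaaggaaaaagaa
MCM3AP-AS1: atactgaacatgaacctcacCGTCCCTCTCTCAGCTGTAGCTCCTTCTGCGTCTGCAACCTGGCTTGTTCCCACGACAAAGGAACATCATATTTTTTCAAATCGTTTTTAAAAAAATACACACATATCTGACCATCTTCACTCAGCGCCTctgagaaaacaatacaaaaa

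Antisense exons of TTN-AS1 covered 5 such coding exons of 50 to 200 bases with their flanks, and those of MCM3AP-AS1 2. Only exons of the canonical sense transcript whose windows overlap no annotated untranslated region were counted, so more may be covered. In total the exons of the pair overlapped by 14004 bases at TTN and 1752 at MCM3AP. In these stretches only the strand of a read tells which gene it came from.

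Antisense genes lay more toward chromatin than the genes of the table at large. Since 70 of the 552 passed the minimum in chromatin libraries alone and 2 in nucleoplasm libraries alone, the comparison is given first for the 403 antisense genes at the minimum in all 6 libraries. Of these, 259 were higher in chromatin and 66 higher in nucleoplasm at an adjusted p under 0.05 (limma over all tested genes, Benjamini-Hochberg), that is 64.3% and 16.4%, against 36.7% and 52.1% of all 20735 genes at that minimum. A log2 fold change is chromatin over nucleoplasm on the log2(normalized count + 1) scale throughout. Past 4-fold as well, 75 (18.6%) were called in chromatin and 1 in nucleoplasm (0.248%), against 11.4% and 8.70%. The median log2 fold change was 0.82, beside -0.28 over all genes at that minimum. The 1973 lncRNA genes at the minimum in all 6 libraries, to which the 403 belong, had a median of 0.99 and 21.0% called in chromatin, so the share of the antisense genes was near that of lncRNAs as a class.

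These directions depend on how libraries are scaled. The ERCC standards were added in the same volume to each fraction, and the paper describes their levels in both as equivalent. Their normalized counts here summed to 122151, 94580 and 98916 in chromatin and 49777, 37409 and 39102 in nucleoplasm. When libraries were set to an equal ERCC sum, the median over the 26066 tested genes moved by -1.31. On that scale 91 of the 403 antisense genes were higher and 195 lower in chromatin, and their median was -0.50 beside -1.60 for all genes at the minimum. The distance of the antisense median from the median of all genes was 1.10 on both scales. Over all 552 antisense genes, the calls numbered 145 in chromatin and 5 in nucleoplasm (26.3% and 0.906%, beside 21.2% and 8.47% of all tested genes), with a median of 1.12. With the same ERCC total these counts were 30 and 55. Because part of the 552 passed the minimum through chromatin alone, nothing is read from this second set of counts.

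The ratio of the antisense to the sense gene within a library does not depend on scaling, apart from a small effect of the pseudocount, and it was compared between fractions in a fit over 6261 pairs of opposite-strand genes. The pair difference, the antisense log2 fold change minus that of the sense gene, had a median of 1.19 over the 449 pairs. It was above 0 in 345 pairs and below 0 in 104. Past 4-fold and an adjusted p under 0.05, the ratio was higher in chromatin in 131 pairs (29.2%) and higher in nucleoplasm in 12 (2.67%), against 37.8% and 2.52% of the 2300 fitted pairs that join 1 lncRNA with a gene of another type. Among the 330 pairs with both genes at the minimum in all 6 libraries, 81 (24.5%) and 6 (1.82%) were called, against 31.0% and 2.37% of 1434 such pairs, and the median was 0.98. The 1852 of the 2300 pairs that are not among the named antisense pairs had a median of 1.59 and 39.9% called. The difference between both sets of pairs was not tested, and the share of calls among named antisense pairs was not above the background.

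**Figure D1:**
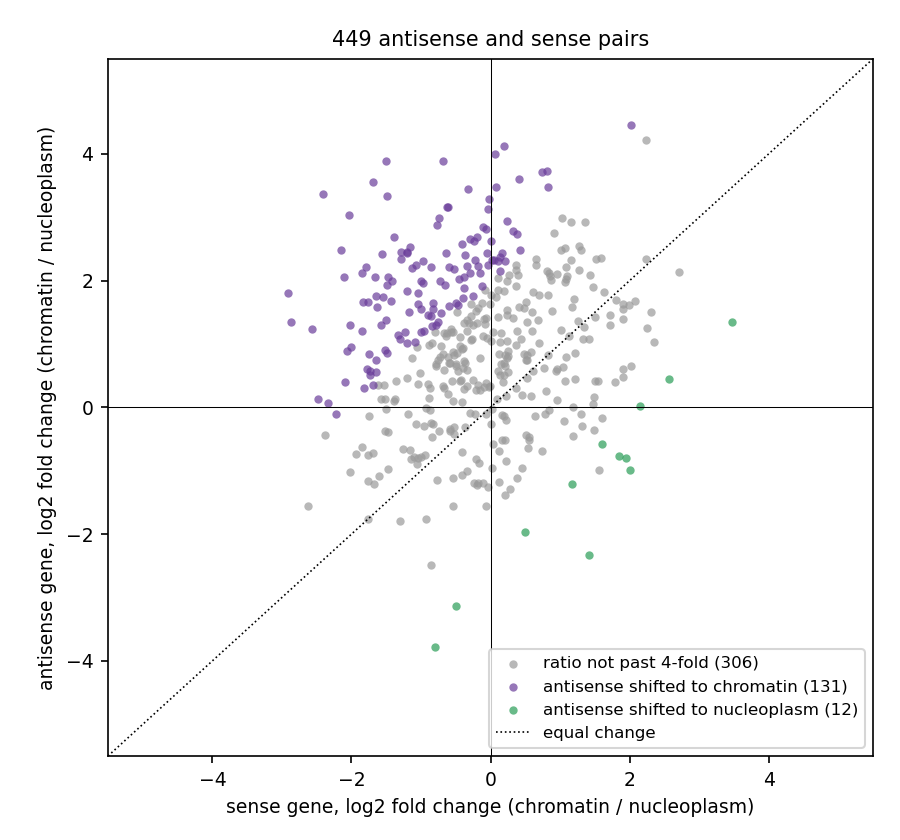
Log2 fold change of each antisense gene (vertical axis) against that of its sense gene (horizontal axis) for the 449 pairs, each point 1 pair, coloured by whether the antisense to sense ratio passed 4-fold and an adjusted p under 0.05. Purple points (131 pairs) lie above the dotted line of equal change and green points (12 pairs) below it, and the cloud shows little slope.

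The change of the antisense gene said little about that of its partner. Across the 449 pairs Pearson's r between the 2 log2 fold changes was 0.10 and Spearman's rho 0.10, a description across pairs that share the same 6 libraries. Of the 442 sense genes, 226 were higher in nucleoplasm and 151 in chromatin on the deposited scale at an adjusted p under 0.05, their median was -0.22, and 13 were called past 4-fold in chromatin and 17 in nucleoplasm. On the deposited scale the antisense gene was higher in chromatin and the sense gene higher in nucleoplasm in 148 pairs, and the reverse held in 17. Both genes were higher in chromatin in 110 pairs and both in nucleoplasm in 40, and in the other 134 at least 1 gene did not pass. The 449 pairs include 113 whose antisense gene was under the minimum in at least 1 library. This split was not computed over all lncRNA pairs, so it is not read as a trait of named antisense pairs. The plot of antisense against sense fold changes shows this as a cloud shifted upward from the diagonal.

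Levels were compared between the genes of a pair per kb of annotated exons. The antisense gene reached a median of 11.7% of its sense gene in chromatin (quartiles 4.66% and 45.7%) and 6.04% in nucleoplasm (quartiles 1.42% and 26.0%). For the 336 pairs with the antisense gene at the minimum in all 6 libraries the medians were 15.8% and 9.60%. It exceeded the sense gene in 59 pairs in chromatin and in 50 in nucleoplasm, in 37 of them in both fractions. In 22 pairs the antisense RNA was the more abundant in chromatin and the less abundant in nucleoplasm, and in 13 the order was the other way around. At the low end, 26 pairs in chromatin and 85 in nucleoplasm had an antisense level under 1% of the sense level, where a small share of sense reads assigned to the wrong strand would matter. Its part in these values was not tested. In the 59 pairs with an antisense level of 100% or more in chromatin the median pair difference was 0.97, and in the 26 pairs under 1% it was 1.34. The chromatin level that sorts the pairs also enters the pair difference. Antisense genes of the low group had a median mean count of 19.2, where some can pass the minimum through chromatin alone. Nothing is read from this contrast.

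**Figure D2:**
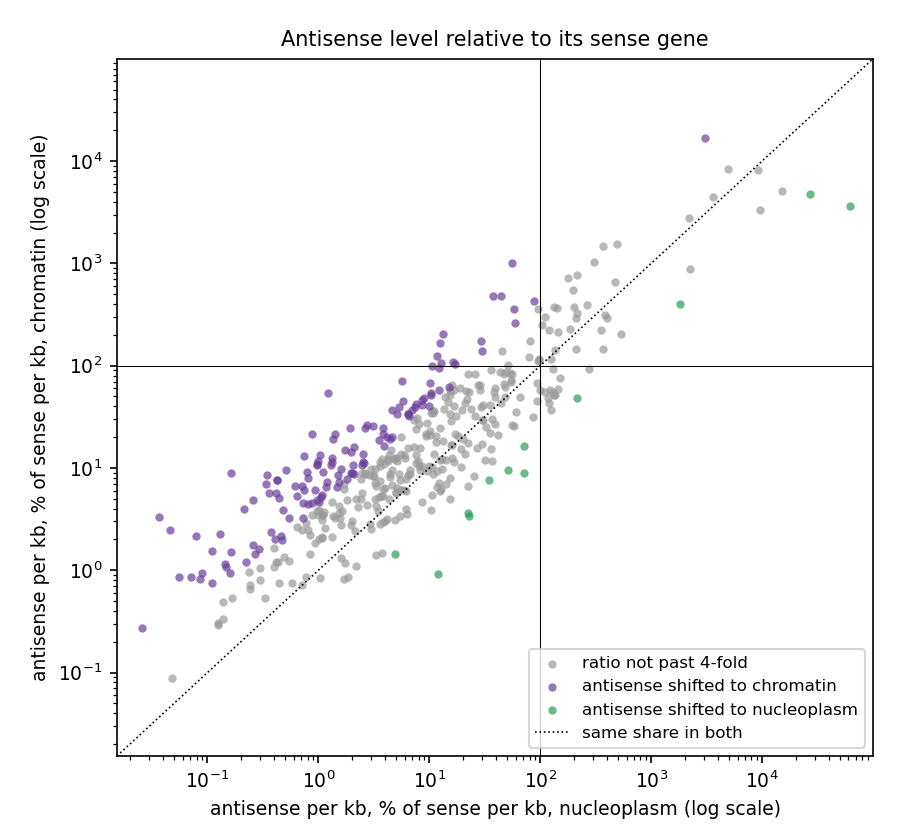
Antisense level per kb as a percent of the sense level per kb in chromatin (vertical) against the same in nucleoplasm (horizontal), both axes logarithmic, each point 1 of 449 pairs (1 pair with the antisense gene at 0 in nucleoplasm is not drawn). Most points lie above the dotted line of equal shares and to the lower left of 100%, with medians of 11.7% and 6.04%.

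The table's loci do not always hold 1 gene. In 50 of the 552 antisense loci another annotated gene on the same strand had exons in the locus and no row of its own, and in 10 of these that gene codes for protein, so its reads are counted with the antisense gene and cannot be told apart. The 10 are LAMTOR5-AS1 (with RBM15), KANSL1L-AS1 (RPE), XPC-AS1 (TMEM43), RMDN2-AS1 (CYP1B1), PCBP1-AS1 (ASPRV1), ZFHX2-AS1 (THTPA), ZIM2-AS1 (ZNF71), SLC30A4-AS1 (C15orf48), GEMIN7-AS1 (ZNF296) and CCDC86-AS1 (PTGDR2). In 24 pairs the same held for the sense locus. The 412 pairs without another gene in the antisense locus had a median pair difference of 1.17, and over the 333 pairs with no other gene in either locus it was 1.19, with 93 and 8 pairs called.

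Of the 8 most abundant antisense loci, 4 were among those shared ones. For the genes given by library from here on, every chromatin library lay on 1 side of every nucleoplasm library, except for TBX5, ZFHX2-AS1, MEF2C-AS2 and the genes near 0, whose values overlapped. LAMTOR5-AS1 (MSTRG.1696, chr1:110347116-110443817) had 39124, 39620.1 and 36191 normalized counts in chromatin and 9325, 9136 and 9145 in nucleoplasm, giving a log2 fold change of 2.06 (SE 0.05, adjusted p = 1.02e-08), or 0.73 with the same ERCC total. Its locus holds RBM15, an adaptor of the RNA methylation machinery, and SLC16A4-AS1, and the reads of these RNAs cannot be told apart. LAMTOR5, a subunit of the Ragulator complex on lysosomes, fell in chromatin, at 748, 659 and 739 normalized counts in chromatin and 3151, 3043 and 3079 in nucleoplasm, and the pair difference was 4.17 (SE 0.08, adjusted p = 5.38e-09). KANSL1L-AS1, whose locus holds RPE of the pentose phosphate pathway, had 13520.5, 15522 and 14158 normalized counts in chromatin and 4388, 4506 and 4416 in nucleoplasm, and a log2 fold change of 1.70. XPC-AS1, whose locus holds TMEM43, and RMDN2-AS1, whose locus holds the cytochrome P450 gene CYP1B1, were higher in nucleoplasm, with log2 fold changes of -0.30 and -1.29. With the same total of gene counts XPC-AS1 turned to 0.16.

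GABPB1-AS1, PAX8-AS1, FGD5-AS1 and TBX5-AS1 were the most abundant without another protein-coding gene in the locus. GABPB1-AS1 (chr15:50354944-50372202), head-to-head with the gene of the GABP transcription factor's beta subunit, had 18758, 22203 and 19699 normalized counts in chromatin and 3629, 3431 and 3322 in nucleoplasm, and its log2 fold change was 2.54 (SE 0.07, adjusted p = 1.18e-08). GABPB1 was itself higher in chromatin, with 2583, 2840.2 and 2593 normalized counts in chromatin and 1077, 1136 and 1086 in nucleoplasm, and the pair difference was 1.26 (SE 0.07, adjusted p = 1.77e-07). All 3 chromatin libraries were above all 3 nucleoplasm libraries for both genes, although with the same ERCC total GABPB1-AS1 was at 1.22, no longer past 4-fold, and GABPB1 at -0.04. Per kb the antisense RNA exceeded the sense RNA, at 249% in chromatin and 104% in nucleoplasm. PAX8-AS1, tail-to-tail with the gene of a developmental transcription factor, had 8057, 8770.4 and 7674 normalized counts in chromatin and 3097, 3067 and 3208 in nucleoplasm, giving a log2 fold change of 1.38 (SE 0.06, adjusted p = 5.24e-08), but with the same ERCC total it was at 0.06 and did not pass. PAX8 itself was low, at 255, 259 and 287 normalized counts in chromatin and 358, 329 and 329 in nucleoplasm, so that the antisense level per kb was 1020.0% of the sense level in chromatin and 308% in nucleoplasm.

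FGD5-AS1 and TBX5-AS1 were on the other side. FGD5-AS1 had 2525, 2332 and 2539 normalized counts in chromatin and 4359, 4396 and 4384 in nucleoplasm, giving a log2 fold change of -0.83 (SE 0.05, adjusted p = 3.9e-07), without overlap between the fractions. FGD5, which encodes an exchange factor for the GTPase CDC42, was near 0, with means of 1.98 normalized counts in chromatin and 0.861 in nucleoplasm, so nearly all reads of this locus came from the antisense strand. TBX5-AS1, head-to-head with the cardiac transcription factor gene TBX5, had 1766, 1697 and 1784 normalized counts in chromatin and 3455, 3353 and 3425 in nucleoplasm, and its log2 fold change was -0.96 (SE 0.04, adjusted p = 8.87e-08). TBX5 did not pass (adjusted p = 0.753), with 2876, 3163 and 2879 normalized counts in chromatin and 3086, 2843 and 2867 in nucleoplasm, and the pair difference was -0.98 (SE 0.07, adjusted p = 1.37e-06). Both antisense genes kept the direction under the same ERCC total and the same total of gene counts.

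FGD5-AS1 was 1 of 54 antisense genes whose sense gene had a row and fell below the minimum. The most abundant of the others, named after their values were seen, were CKMT2-AS1 (log2 fold change 2.31, SE 0.09, adjusted p = 4.41e-08), NUTM2B-AS1 (2.91, SE 0.15, adjusted p = 1.79e-07), SYT9-AS1 (2.30, SE 0.11, adjusted p = 1.2e-07), OVCH1-AS1 (-0.47, SE 0.09, adjusted p = 0.000742) and TMC3-AS1 (2.61, SE 0.10, adjusted p = 4.65e-08). CKMT2-AS1 had 2534, 3078 and 2411 normalized counts in chromatin and 552, 545 and 506 in nucleoplasm, while CKMT2, the mitochondrial creatine kinase of striated muscle, was at 0 in all 6 libraries. The sense genes OVCH1 and TMC3 were at 0 in all 6 as well, and SYT9 was at 0 in chromatin with a mean of 0.585 in nucleoplasm. Depth allows up to 3 reads in a library where none was counted.

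The largest shifts to chromatin among antisense genes whose mean reached 50 normalized counts were those of TTN-AS1, SEPSECS-AS1, PARD6G-AS1, FAM13A-AS1 and AP1G2-AS1. TTN-AS1 (chr2:178521183-178779963), across the gene of the giant sarcomere protein titin, had 206, 221 and 201 normalized counts in chromatin and 9.65, 14.6 and 7.60 in nucleoplasm, giving a log2 fold change of 4.22 (SE 0.22, adjusted p = 1.85e-07). It fell below the minimum in 2 nucleoplasm libraries. TTN moved the same way at a lower level, with 71.0, 54.0 and 74.6 normalized counts in chromatin and 9.65, 15.5 and 15.2 in nucleoplasm, so the pair difference of 1.98 (SE 0.29, adjusted p = 0.000168) stayed just under 4-fold. Of the 25511 annotated exon bases of TTN-AS1, 14004 lie across exons of TTN, where only the strand of a read separates both values.

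SEPSECS-AS1 (chr4:25160641-25201440) starts 90 bases from SEPSECS, which encodes the enzyme that makes selenocysteine on its tRNA. The antisense gene had 1962, 2613 and 1659 normalized counts in chromatin and 147, 109 and 98.8 in nucleoplasm, giving a log2 fold change of 4.12 (SE 0.19, adjusted p = 9.33e-08). SEPSECS moved far less, with 2038, 2338 and 2294 normalized counts in chromatin and 1933, 1964 and 1895 in nucleoplasm and a log2 fold change of 0.20 (SE 0.06, adjusted p = 0.0121), and the pair difference was 3.92 (SE 0.18, adjusted p = 7.51e-08). Per kb the antisense RNA stood at 205% of the sense RNA in chromatin and 13.4% in nucleoplasm. The assembled locus covers 25163257 to 25185423 on chromosome 4 (Jaccard 0.543), so its start lies inside the annotated gene and not at the interval printed for it.

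SAP30L-AS1 and TPT1-AS1, whose intervals are printed next to that of SEPSECS-AS1, behaved alike in the ratio. SAP30L-AS1 had 666, 705 and 551 normalized counts in chromatin and 77.2, 62.8 and 71.0 in nucleoplasm, and SAP30L, a component of a histone deacetylase complex, averaged 1701 in chromatin and 2634 in nucleoplasm, with a pair difference of 3.80 (SE 0.14, adjusted p = 2.46e-08). TPT1-AS1 had 1957, 2225 and 1908 normalized counts in chromatin and 806, 906 and 764 in nucleoplasm, and its log2 fold change of 1.30 became -0.03 with the same ERCC total. TPT1, whose translationally controlled mRNA is highly abundant, averaged 12722 in chromatin and 51060.3 in nucleoplasm, and the pair difference was 3.32 (SE 0.17, adjusted p = 1.25e-07). On the deposited scale both genes contributed to it, whereas the antisense part was near 0 with the same ERCC total. URB1-AS1 was higher in nucleoplasm, at 95.5, 78.1 and 111 normalized counts in chromatin and 219, 213 and 248 in nucleoplasm, while URB1, a ribosome biogenesis factor, had means of 7944 in chromatin and 8129.9 in nucleoplasm and a log2 fold change of -0.03 (SE 0.05, adjusted p = 0.559). The pair difference there was -1.23 (SE 0.14, adjusted p = 2.71e-05), and for MNX1-AS1, beside a homeobox gene of motor neurons and pancreas, it was -0.68 (SE 0.12, adjusted p = 0.000545).

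PARD6G-AS1 (chr18:80147908-80179839) lies tail-to-tail with PARD6G, a cell polarity adaptor, and no exons overlap. The antisense gene had 377, 564 and 449 normalized counts in chromatin and 29.8, 33.6 and 27.0 in nucleoplasm, giving a log2 fold change of 3.88 (SE 0.16, adjusted p = 5.04e-08). PARD6G had 583, 542 and 640.0 normalized counts in chromatin and 1643, 1644 and 1693 in nucleoplasm. The antisense gene thus rose in chromatin where the sense gene fell, and the pair difference was 5.38 (SE 0.19, adjusted p = 1.83e-08). An unnamed gene without a row of its own shares the antisense locus. FAM13A-AS1 had 179, 443 and 309.6 normalized counts in chromatin and 14.9, 26.7 and 23.7 in nucleoplasm, with wide spread among the chromatin libraries, and a log2 fold change of 3.72 (SE 0.33, adjusted p = 6.97e-06), and 2 unnamed genes share its locus. AP1G2-AS1, beside a gamma-adaptin gene that matched no row, had 359, 334 and 353 normalized counts in chromatin and 26.3, 20.7 and 38.0 in nucleoplasm, giving a log2 fold change of 3.62 (SE 0.20, adjusted p = 2.75e-07).

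SLC25A5-AS1 opposes an abundant housekeeping mRNA. The antisense gene had 239.9, 270.2 and 229 normalized counts in chromatin and 103, 110.2 and 98.0 in nucleoplasm, and SLC25A5, a mitochondrial ADP/ATP carrier, had 8411, 7099 and 8349.5 normalized counts in chromatin and 46224, 46641 and 48080.4 in nucleoplasm. Most of the pair difference of 3.81 (SE 0.14, adjusted p = 2.47e-08) came from the sense gene, since the antisense change was 1.24 on the deposited scale and -0.08 with the same ERCC total.

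**Figure D3:**
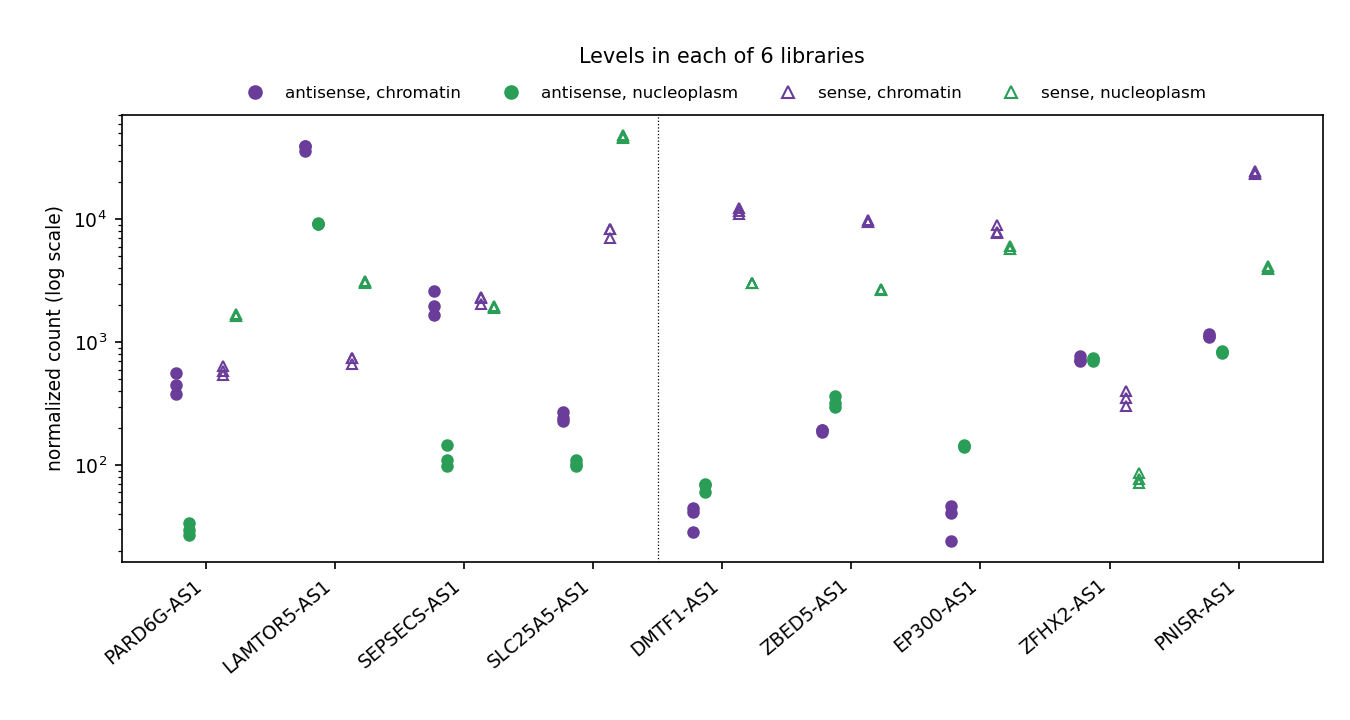
Normalized counts (logarithmic axis) in each of the 6 short-read libraries for 9 pairs with large called pair differences and means of at least 50 counts for both genes, filled circles for the antisense gene and open triangles for the sense gene, purple for chromatin and green for nucleoplasm. In the 4 pairs left of the dotted line antisense circles are higher in chromatin, and in the 5 pairs right of it the sense gene is higher in chromatin than in nucleoplasm.

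In 12 pairs the ratio was higher in nucleoplasm. On the deposited scale 10 of the 12 sense genes were higher in chromatin at an adjusted p under 0.05 (limma), against 151 of all 442 sense genes. STAG2, whose row also spans TEX13D, and ZNF114 were lower. Since the 12 pairs were chosen by a ratio that holds the sense gene, nothing is read from this count. In 5 of the 12 pairs both genes had a mean of at least 50 counts. DMTF1-AS1 had 41.9, 28.8 and 45.0 normalized counts in chromatin and 69.3, 60.3 and 70.1 in nucleoplasm, and DMTF1, a transcription factor that binds cyclin D, had 11050.3, 12254 and 11721 normalized counts in chromatin and 3013, 3041 and 3011 in nucleoplasm, a pair difference of -2.74 (SE 0.21, adjusted p = 2.23e-06). ZBED5-AS1 had 194, 192 and 186 normalized counts in chromatin and 364, 296 and 321 in nucleoplasm, whereas ZBED5, which derives from a DNA transposon, had 9543, 9782 and 9484 normalized counts in chromatin and 2649, 2689 and 2654 in nucleoplasm, and the pair difference was -2.62 (SE 0.10, adjusted p = 3.22e-08). In both pairs the 2 strands separated the fractions in opposite directions without overlap.

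EP300-AS1, which overlaps the end of the histone acetyltransferase gene EP300 without shared exons, had 46.6, 24.0 and 40.6 normalized counts in chromatin and 145, 141 and 142 in nucleoplasm. EP300 had 9052, 7889 and 7799.6 normalized counts in chromatin and 6103, 5757 and 5697 in nucleoplasm, a shift that turned to -0.83 with the same ERCC total, and the pair difference was -2.46 (SE 0.21, adjusted p = 3.9e-06). PNISR-AS1 was itself higher in chromatin on the deposited scale, with 1133, 1167 and 1112 normalized counts in chromatin and 841, 849.7 and 819.5 in nucleoplasm, and at -0.88 with the same ERCC total. PNISR, which encodes a nuclear protein rich in serine and arginine, had 23180.2, 24826 and 23920.1 normalized counts in chromatin and 4044, 4173 and 3949 in nucleoplasm, so the pair difference was -2.12 (SE 0.06, adjusted p = 8.73e-09). ZFHX2-AS1 did not pass on its own, with 706, 776 and 714 normalized counts in chromatin and 699, 742 and 731 in nucleoplasm (adjusted p = 0.827), and its locus holds THTPA. ZFHX2, a zinc finger homeobox gene, had 354, 401 and 304 normalized counts in chromatin and 72.0, 86.1 and 76.9 in nucleoplasm, and the pair difference was -2.14 (SE 0.12, adjusted p = 1.9e-07).

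Of the 552 antisense genes 5 (0.906%) were called in nucleoplasm in their own right, against 8.47% of all tested genes. Part of the 552 passed the minimum through 1 fraction alone, so nothing is read from that share. Among the 403 at the minimum in all 6 libraries 1 was called (0.248%), against 8.70% of all genes at that minimum. The 5, named after their values were seen, were STAG2-AS1 (log2 fold change -3.78), ZNF114-AS1 (-3.13), IDH1-AS1 (-2.49), CPNE8-AS1 (-2.33) and PLPPR5-AS1 (-2.05). PLPPR5-AS1, the 1 of them at the minimum in all 6 libraries, had 11.6, 22.8 and 17.6 normalized counts in chromatin and 71.1, 80.9 and 66.7 in nucleoplasm. IDH1-AS1 had 15.1, 0 and 12.1 normalized counts in chromatin and 34.2, 37.9 and 26.2 in nucleoplasm, with 0 in 1 chromatin library. CPNE8-AS1 passed the minimum through nucleoplasm libraries alone. None of the 312 antisense genes with a mean of at least 50 counts was called in nucleoplasm past 4-fold by limma, edgeR or DESeq2. None of them was past 4-fold that way at an unadjusted p under 0.05. By these tools 54, 54 and 50 were lower in chromatin at an adjusted p under 0.05. The share of all genes at that mean was not computed, so nothing is read from this absence.

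At the other extreme, 11 antisense genes had at most 3 reads in every nucleoplasm library. These could pass the minimum through chromatin alone, so the filter fixed their direction and nothing is read from it. The share of all tested genes at this floor was not computed. For these the fold is a lower bound against 3 reads per library, and it ran from at least 4.16-fold higher in chromatin for ZNF652-AS1 to at least 13.3-fold for FSIP2-AS1. FSIP2-AS1 had 37.3, 28.8 and 37.3 normalized counts in chromatin and 0, 0 and 0 in nucleoplasm. No antisense gene was at or under 3 reads in every chromatin library. Genes just inside the count minimum were CPNE8-AS1, NEXN-AS1, MAP3K20-AS1 and PRKCH-AS1, with 10.3, 10.5, 10.5 and 10.5 normalized counts in the lowest of their 3 best libraries. Just outside it were IRAG1-AS1, ZNF667-AS1 and UCKL1-AS1, each with 9.88 there, and HELZ-AS1 with 9.65.

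A list of 37 antisense lncRNAs with a literature of their own gave 21 genes that passed the minimum, all with a tested sense gene. On the deposited scale 11 were higher in chromatin, 5 were lower and 5 did not pass, and 5 were called past 4-fold, all in chromatin. With the same ERCC total 7 were higher and 11 lower. The ratio to the sense gene passed 4-fold toward chromatin in 5 pairs, LEF1-AS1, NR2F1-AS1, NR2F2-AS1, PCBP1-AS1 and TMPO-AS1, and in none toward nucleoplasm, against 37.8% and 2.52% of lncRNA pairs. The median pair difference of the 21 was 0.67, beside 1.19 for all 449.

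The 2 nuclear receptor genes of the list resembled each other. NR2F1-AS1 had 772, 753 and 1367 normalized counts in chromatin and 305, 331 and 343 in nucleoplasm, with chromatin replicate 3 above the other two, and NR2F1 had 585, 561 and 506 normalized counts in chromatin and 1287, 1189 and 1248 in nucleoplasm, a pair difference of 2.68 (SE 0.25, adjusted p = 6.8e-06). NR2F2-AS1 had 297, 341 and 324 normalized counts in chromatin and 57.9, 51.7 and 44.8 in nucleoplasm, and NR2F2 had 1164, 1137 and 1345 normalized counts in chromatin and 1422, 1364 and 1485 in nucleoplasm, a pair difference of 2.85 (SE 0.15, adjusted p = 1.48e-07). Both antisense genes were higher in every chromatin library than in any nucleoplasm library, and both sense genes, orphan receptors of development, were lower in chromatin at an adjusted p under 0.05, NR2F2 on the deposited and ERCC scales only (0.23 with the same total of gene counts). The forkhead genes of the list gave another picture. FOXD3-AS1 had 118, 110.5 and 126 normalized counts in chromatin and 259.8, 286 and 268 in nucleoplasm, giving a log2 fold change of -1.19 (SE 0.09, adjusted p = 1.88e-06), while FOXD3, a pluripotency and neural crest factor, did not pass, at -0.11 (SE 0.09, adjusted p = 0.256). FOXD2-AS1 and FOXP4-AS1 had log2 fold changes of -0.21 and -0.68, and FOXD2-AS1 turned to 0.26 with the same total of gene counts.

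MCM3AP-AS1, whose exons cross coding exons of the export factor gene MCM3AP, had 2359.6, 2669.7 and 2367 normalized counts in chromatin and 682, 697 and 659 in nucleoplasm. MCM3AP had 8671, 8780.0 and 8592 normalized counts in chromatin and 7669, 8186 and 8263 in nucleoplasm, with a log2 fold change of 0.11 (SE 0.05, adjusted p = 0.0447), and the pair difference was 1.74 (SE 0.07, adjusted p = 4.38e-08). MAGI2-AS3 went against this pattern: it had 2355, 2538 and 2428 normalized counts in chromatin and 1166, 1267 and 1160.0 in nucleoplasm, but MAGI2, a scaffold of cell junctions, was shifted more, with 509, 628 and 463 normalized counts in chromatin and 107, 106 and 97.2 in nucleoplasm, and the pair difference was -1.32 (SE 0.12, adjusted p = 4.97e-06). MAPKAPK5-AS1 was higher in nucleoplasm, with 785, 609 and 707 normalized counts in chromatin and 1528, 1465 and 1534 in nucleoplasm, against 6938, 7364 and 7366 normalized counts in chromatin and 5542, 5517 and 5562 in nucleoplasm for the kinase gene MAPKAPK5, a pair difference of -1.50 (SE 0.11, adjusted p = 1.25e-06). MAPKAPK5 turned to -0.94 with the same ERCC total, as MAGI2-AS3 did to -0.30. ZEB1-AS1, SBF2-AS1, VPS9D1-AS1 and PAXIP1-AS2 did not pass on their own, with log2 fold changes of -0.08, 0.12, 0.28 and -0.35. PAXIP1-AS2 ranged from 262 to 588 normalized counts within the chromatin fraction alone.

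The other called pairs of the list were LEF1-AS1, TMPO-AS1 and PCBP1-AS1. LEF1-AS1, head-to-head with a transcription factor gene of the Wnt pathway, had 62.9, 43.2 and 48.3 normalized counts in chromatin and 7.02, 16.4 and 11.0 in nucleoplasm, and LEF1 had 992, 974 and 963 normalized counts in chromatin and 1172, 1222 and 1217 in nucleoplasm, which put the pair difference at 2.43 (SE 0.30, adjusted p = 4.78e-05). TMPO-AS1, beside the gene of the nuclear lamina protein thymopoietin, had 730.2, 699 and 595 normalized counts in chromatin and 362, 339 and 292 in nucleoplasm, with a pair difference of 2.11 (SE 0.13, adjusted p = 3.4e-07), although its own log2 fold change of 1.03 was at -0.30 with the same ERCC total. PCBP1-AS1, whose locus also holds ASPRV1, had 3083, 3701 and 3194 normalized counts in chromatin and 1095, 987 and 913 in nucleoplasm, and its pair difference against the RNA-binding protein gene PCBP1 was 3.28 (SE 0.18, adjusted p = 2.35e-07). PXN-AS1 and DDX11-AS1, beside the genes of the focal adhesion protein paxillin and of a DNA helicase, were higher in chromatin, with log2 fold changes of 0.46 and 2.75, PXN-AS1 at -0.86 with the same ERCC total. LOXL1-AS1, beside a lysyl oxidase gene, was lower in chromatin at -0.71.

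Of the sense genes, 7 have 2 antisense genes that passed the minimum, which allows 2 antisense RNAs of the same locus to be set side by side. The 7 are CACNA1C, DLGAP1, MEF2C, PTOV1, SEMA6A, TFAP2A and TRIM7, and since the 2 pairs of a gene share the sense values they are not independent. Of the 14 antisense genes 13 were higher in chromatin and 1 was lower on the deposited scale, and with the same ERCC total 6 were higher and 2 lower. By edgeR and by DESeq2 11 were higher and 1 lower, MEF2C-AS2 and TRIM7-AS2 no longer passing, and over all genes at the minimum in all 6 libraries 36.7% were higher by limma. CACNA1C, the gene of a cardiac calcium channel subunit, had 1 antisense gene on each side. CACNA1C-AS1 had 72.2, 85.3 and 79.0 normalized counts in chromatin and 24.6, 25.8 and 26.2 in nucleoplasm, and CACNA1C-AS2 had 15.1, 26.4 and 16.5 normalized counts in chromatin and 45.6, 44.8 and 43.9 in nucleoplasm, both without overlap between fractions. CACNA1C itself was low, with means of 17.0 and 6.89, and the pair differences were 0.42 and -2.38, the second past 4-fold (adjusted p = 0.000139).

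The antisense genes of MEF2C, a muscle and neural transcription factor gene, differed in level. MEF2C-AS1 had 836, 1096 and 749 normalized counts in chromatin and 147, 111 and 112 in nucleoplasm, a pair difference of 2.95 (SE 0.19, adjusted p = 5.67e-07), while MEF2C-AS2 had 18.6, 28.8 and 19.8 normalized counts in chromatin and 5.27, 7.75 and 20.3 in nucleoplasm and overlapped between the fractions. DLGAP1-AS1 and DLGAP1-AS2, inside the gene of a synaptic scaffold, were close to each other, with log2 fold changes of 2.32 and 2.93 and pair differences of 1.16 and 1.77. SEMA6A-AS1 and SEMA6A-AS2 were each under 1% of the axon guidance gene SEMA6A per kb in chromatin, at 0.823% and 0.806%. The antisense genes of TRIM7, a ubiquitin ligase gene, had log2 fold changes of 2.13 and 0.28, those of PTOV1 1.55 and 1.19, and those of the transcription factor gene TFAP2A 0.84 and 1.57. With the same ERCC total MEF2C-AS2, PTOV1-AS2, TFAP2A-AS1 and TRIM7-AS2 were at -0.10, -0.07, -0.47 and -1.03.

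By arrangement, median pair differences were above 0 in each of the 5 classes with more than 1 tested pair. The counts called stand beside 37.8% and 2.52% of all lncRNA pairs. Head-to-head pairs with a gap (30 pairs) had a median of 1.80 with 11 called toward chromatin and none toward nucleoplasm, and head-to-head overlapping pairs (236) had 1.26 with 65 and 6 called. Antisense genes inside the sense gene (87) had 1.08 with 25 and 2 called, and tail-to-tail overlapping pairs (75) had 0.80 with 19 and 3. The 18 pairs with the sense gene inside the antisense gene had the highest median, 2.31, with 10 and 1 called, above the share of all lncRNA pairs toward chromatin, and they include shared loci such as that of LAMTOR5-AS1. With the antisense gene at the minimum in all 6 libraries, the medians were 1.80 (26 pairs, 9 and 0 called), 1.09 (178 pairs, 44 and 3 called), 0.65 (51 pairs, 8 and 1 called), 0.45 (63 pairs, 13 and 3 called) and 1.88 (16 pairs, 8 and 1 called) in the same order of classes. The nearest background for these restricted counts is 31.0% and 2.37% of the 1434 lncRNA pairs with both genes at that minimum. The 108 pairs whose annotated exons did not overlap had a median of 1.45 and the 341 with overlapping exons 1.15. Overlap of the assembled loci was not compared. Differences between classes were not tested.

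**Figure D4:**
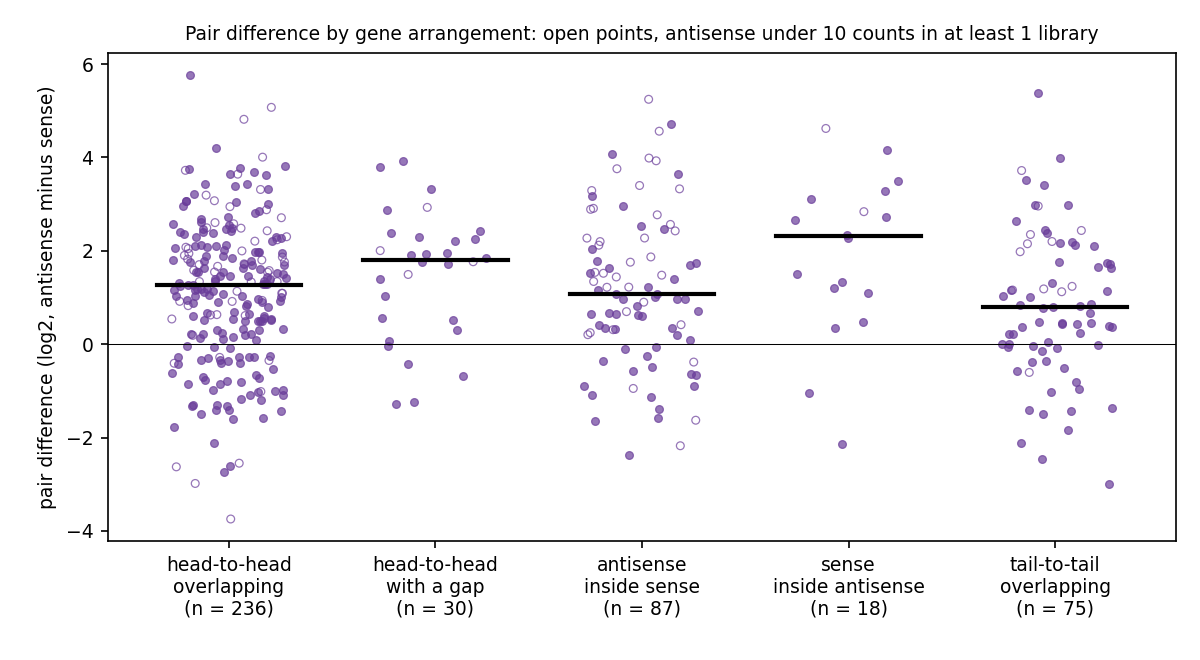
Pair difference (log2, antisense minus sense fold change) for each tested pair in the 5 arrangements with more than 1 pair, black bars at the medians, filled points for antisense genes at the minimum in all 6 libraries and open points for the others. Medians lie between 0.80 (tail-to-tail overlapping) and 2.31 (sense inside antisense), and every class spans both signs.

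Sense partners were grouped by symbol. The 50 pairs with a transcription factor gene had a median pair difference of 0.93 with 10 called toward chromatin and 2 toward nucleoplasm, and these sense genes had a median log2 fold change of 0.09. With the antisense gene at the minimum in all 6 libraries, 38 of these pairs were left, with a median of 0.40 and 6 and 1 called. Of the lncRNA pairs with both genes at that minimum, 31.0% and 2.37% were called. The 18 pairs with GTPases and their regulators had 1.33 with 4 called toward chromatin, and the 16 with transporters and channels 0.78 with 4 and 1 called. Smaller groups were the 11 pairs with RNA-binding and splicing proteins (0.70, 2 called), the 11 with the ubiquitin system (1.03, 3 called) and the 7 with chromatin proteins (0.54, 1 called each way). The 336 other pairs had 1.31 with 107 and 8 called. With the same restriction the medians were 1.26 for GTPases (16 pairs), 0.65 for transporters (15), 0.54 for RNA-binding proteins (8), 0.77 for the ubiquitin system (9), 0.20 for chromatin proteins (5) and 1.06 for the others (245). Against 37.8% called among lncRNA pairs, none of the 6 named groups exceeded that share.

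The long-read chromatin libraries held 353 of the 552 antisense genes above 0 TPM in both replicates, 401 in replicate 1 and 421 in replicate 2, and 83 in neither. TPM keeps no depth, so a 0 carries no limit here. Per the paper, this cDNA preparation loses the strand of origin, and many reads map to the wrong strand unless corrected. A TPM above 0 may therefore hold sense reads, and their part was not tested. Detection went with the short-read level in chromatin. Of the 139 antisense genes under 30 normalized counts, 41.7% were above 0 in both long-read libraries, of 175 at 30 to 100 counts 51.4%, of 112 at 100 to 300 counts 78.6%, and of 126 at 300 counts or more 92.9%.

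**Figure D5:**
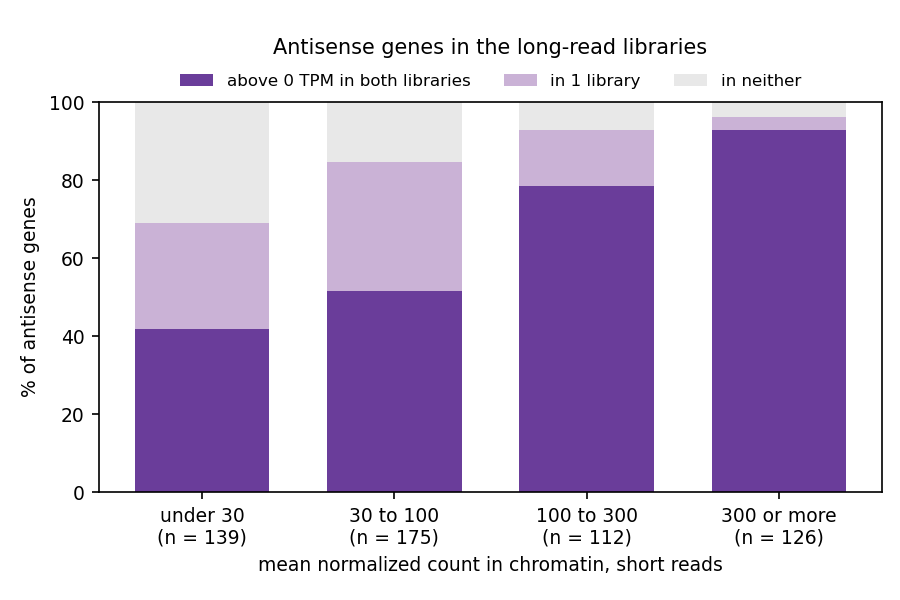
Percent of antisense genes above 0 TPM in both, 1 or neither of the 2 long-read chromatin libraries (stacked bars) by mean normalized count in short-read chromatin. The share above 0 in both rises from 41.7% under 30 counts to 92.9% at 300 or more.

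Exceptions stood at both ends. DUT-AS1, MSANTD2-AS1, PNISR-AS1, RAB4A-AS1 and TBX5-AS1, named after their values were seen, had at least 300 counts in chromatin by short reads and 0 TPM in both long-read libraries. The highest long-read values belonged to TUBA1B-AS1, with 314 and 892 TPM in replicates 1 and 2, at short-read means of 116 counts in chromatin and 34.2 in nucleoplasm. Its sense gene, a tubulin gene that matched no row of the short-read table, had 178 and 98.0 TPM. PCBP1-AS1 followed with 153 and 119.8 TPM against 47.2 and 25.5 for PCBP1, and TPT1-AS1 with 73.7 and 50.7 against 182 and 166 for TPT1. TAPT1-AS1 had 60.6 and 119 TPM with a short-read mean of 36.2 counts in chromatin. Long reads were aligned without taking the strand from splice motifs, and whether the deposited table was made from reads with an assigned strand is not given in the sources used here. The part of sense reads in these antisense TPM was not tested. Over the 449 pairs the antisense TPM was below that of the sense gene in both libraries in 329 and above it in both in 46.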

How the data were processed

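Per the labels and the study's methods, the authors aligned the directional single-end short reads to hg38 with ERCC sequences using HISAT2 2.1.0, assembled transcripts with StringTie guided by GENCODE, merged both fractions and counted genes from StringTie coverage. The deposited short-read values are a normalized signal, counts divided by DESeq2 size factors. For long reads the authors deposited TPM by transcript, made with minimap2 and StringTie. Every value was a whole multiple of the smallest value of its library (100%), which gave recovered reads. These are the whole counts derived from StringTie coverage, and reads in the floors and fold bounds has that meaning.

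Genes and positions were taken from GENCODE release 44; 92.7% of ENSG rows had its exact start and end. Genes longer than 200 bases that reached 10 normalized counts in 3 or more libraries entered a limma fit (version 3.58.1, R 4.3.3) of log2(normalized count + 1). The fit modelled the trend of variance with level, had no covariates and was adjusted by Benjamini-Hochberg. A call needed an adjusted p under 0.05 and more than 4-fold. Pair ratios were fitted likewise, over opposite-strand pairs within 5 kb. Count models of the recovered reads (edgeR 4.0.16, DESeq2 1.42.0) were alternatives, by which 150 and 150 antisense genes were called in chromatin and 4 and 3 in nucleoplasm. Both fits were tested on simulated data.

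Named genes were, by rule, the 8 most abundant members, the 5 largest called changes and 6 largest called pair differences in each direction at a mean of at least 50 counts, a list of 37 known antisense lncRNAs, sense genes with 2 members, and genes next to the count minimum. Members and lists were chosen with earlier results of these data known. A few genes that the rule names are not reported here. Intervals and floors cover counting error only.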

Additional observations from a re-analysis of the deposited data

How the results depend on the processing

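The alternatives were another pseudocount, filter, scaling, tool, fold minimum, matching overlap, pair restriction, a replicate block and the omission of each library. A pseudocount of 5 gave 94 antisense genes called in chromatin and 1 in nucleoplasm, and 7 pairs toward nucleoplasm. Requiring 10 counts in all 6 libraries gave 75 and 1 genes, a median of 0.82, and 81 and 6 pairs. A mean of at least 50 counts gave 72 and 0 genes (limma; 54 lower in chromatin at an unadjusted p under 0.05, and 0 past 4-fold by edgeR and DESeq2 as well) and 71 and 5 pairs. The same ERCC total gave 30 and 55 genes and a median of -0.15, and the same total of gene counts 205 and 3 genes and a median of 1.57. DESeq2 called 3 genes in nucleoplasm. More than 2-fold gave 294 and 30 genes and 250 and 44 pairs. Pairs without overlapping exons (108) gave 35 and 4 calls and a median of 1.45. Several of these alternatives change which genes or pairs enter, the threshold or the scale. The cause of the moves was not tested.

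With each library left out in turn, genes called in chromatin ran from 135 to 149, in nucleoplasm from 3 (without nucleoplasm replicate 2) to 6, the median from 1.11 to 1.17, pairs called from 127 to 135 and from 11 to 13, and the median pair difference from 1.17 to 1.23. With the replicate block there were 145 and 5 genes with a median of 1.12, and 131 and 13 pairs with a median of 1.19. Replicate numbers were not treated as pairing, since deviations of same-numbered libraries correlated at 0.087, 0.053 and 0.063, although each library correlated best with its own number. Without loci that hold another gene, chosen after seeing the data, there were 129 and 4 genes, and 93 and 8 of 333 pairs.

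No named pair difference that had passed changed its sign under these alternatives (699 values kept their side of the threshold, 5 lost it and 6 crossed it). Gene directions turned with the same ERCC total for MAGI2-AS3 (-0.30), MEF2C-AS2 (-0.10), PNISR-AS1 (-0.88), PTOV1-AS2 (-0.07), PXN-AS1 (-0.86), SLC25A5-AS1 (-0.08), TFAP2A-AS1 (-0.47), TMPO-AS1 (-0.30) and TRIM7-AS2 (-1.03), and with the same total of gene counts for FOXD2-AS1 (0.26) and XPC-AS1 (0.16). With the same ERCC total LAMTOR5-AS1, GABPB1-AS1, DDX11-AS1, DLGAP1-AS1, DLGAP1-AS2, LEF1-AS1, MEF2C-AS1, NR2F2-AS1, SEMA6A-AS2 and TRIM7-AS1 stayed above 0 and were no longer past 4-fold in chromatin (0.73 to 1.63). The long-read count was 330 at 0.1 TPM or more and 340 with ENST identifiers alone.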
